A study of Homo sapiens with 4 samples.

Results

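The ERBB receptors and their ligands are described here across 2 human gastric cancer cell lines. The 10 genes were taken by name from the 58336 genes of the deposited count table: the receptors EGFR, ERBB2, ERBB3 and ERBB4, and the ligands AREG, EREG, TGFA, HBEGF, BTC and EPGN. Members were found by matching these names to the table. The study sequenced RNA from AGS, a gastric adenocarcinoma line, and HGC-27, an undifferentiated gastric carcinoma line, each without added hormone and after 1 day in 10 nM estradiol, the main oestrogen. All cells were labelled WT for genotype, and each line gave 1 control library and 1 estradiol library, 4 libraries in all. Nothing in the labels says that the libraries came from separate cultures, and no combination of line and treatment was repeated. The spread behind the p-values of the main tests is therefore how unequally the 2 lines changed with treatment. It is taken mostly from all genes together, and it may be technical.

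The ERBB family are receptor tyrosine kinases that signal as pairs. EGFR binds AREG, TGFA and EPGN; EREG, HBEGF and BTC bind both EGFR and ERBB4. ERBB2 has no known ligand of its own and acts as a partner, and ERBB3 has little kinase activity and depends on a partner to signal. The ligands are made as membrane-bound precursors and are released by proteases, and the active receptors feed the RAS-MAPK and PI3K pathways. In gastric cancer, EGFR and ERBB2 are known for amplification and as drug targets.

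The 10 genes lie on 6 chromosomes, with positions given on GRCh38 as in the deposited table. The receptors are EGFR (ENSG00000146648) at chr7:55019021-55211628, ERBB2 (ENSG00000141736) at chr17:39687914-39730426 and ERBB3 (ENSG00000065361) at chr12:56076799-56103505, all on the plus strand. ERBB4 (ENSG00000178568) spans 1163.1 kb on the minus strand at chr2:211375717-212538841. Of the ligands, TGFA (ENSG00000163235) lies at chr2:70447280-70554193 and HBEGF (ENSG00000113070) at chr5:140332843-140346631, both on the minus strand. The other ligands form a block of 486.2 kb on chromosome 4. EPGN (ENSG00000182585) at chr4:74308473-74315307, EREG (ENSG00000124882) at chr4:74365143-74388751 and AREG (ENSG00000109321) at chr4:74445134-74455009 are on the plus strand, and BTC (ENSG00000174808) at chr4:74744759-74794686 is on the minus strand. All are protein coding.

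RefSeq promoter windows (GRCh38.p14, 250 bases before each start) were found for 9 of the 10 genes, all but ERBB3. There were 11 windows because EGFR and TGFA have more than 1 start. The 3 chromosome 4 ligands that had almost no reads in either line are shown first, since their windows share a TATAAA close to the start. HBEGF follows as a ligand read in both lines, and EGFR and ERBB4 as receptors whose levels ran in opposite directions between the lines. Sequences are written 5′ to 3′ on the gene's own strand, and stop before the gene's start in the deposited table where that start lies upstream of the RefSeq one. Capitals mark the TATA box TATAAA, the GC box GGGCGG and the E-box CACCTG, or their reverse complements.
EPGN, chr4:74308220-74308469, plus strand: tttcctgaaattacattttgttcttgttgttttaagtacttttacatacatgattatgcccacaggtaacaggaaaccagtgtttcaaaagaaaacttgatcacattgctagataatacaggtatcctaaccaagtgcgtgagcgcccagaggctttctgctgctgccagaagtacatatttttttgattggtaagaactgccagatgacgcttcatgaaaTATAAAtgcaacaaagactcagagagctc
EREG, chr4:74364895-74365142, plus strand: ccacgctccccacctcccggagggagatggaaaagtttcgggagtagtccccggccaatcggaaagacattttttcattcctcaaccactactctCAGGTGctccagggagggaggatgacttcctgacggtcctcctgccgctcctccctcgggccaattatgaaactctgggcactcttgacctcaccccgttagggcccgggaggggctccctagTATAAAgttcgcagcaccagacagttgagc
AREG, chr4:74444886-74445133, plus strand: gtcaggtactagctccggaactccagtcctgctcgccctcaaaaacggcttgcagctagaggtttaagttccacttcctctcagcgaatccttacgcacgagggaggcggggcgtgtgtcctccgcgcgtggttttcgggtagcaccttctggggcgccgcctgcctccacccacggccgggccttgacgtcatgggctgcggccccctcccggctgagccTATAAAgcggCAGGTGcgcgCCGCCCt
HBEGF, chr5:140346632-140346853, minus strand: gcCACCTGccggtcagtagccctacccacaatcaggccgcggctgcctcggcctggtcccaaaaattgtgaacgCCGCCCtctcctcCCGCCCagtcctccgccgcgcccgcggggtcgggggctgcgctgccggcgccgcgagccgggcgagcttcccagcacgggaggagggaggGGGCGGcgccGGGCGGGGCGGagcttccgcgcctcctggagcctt
EGFR, first start, chr7:55018767-55019016, plus strand: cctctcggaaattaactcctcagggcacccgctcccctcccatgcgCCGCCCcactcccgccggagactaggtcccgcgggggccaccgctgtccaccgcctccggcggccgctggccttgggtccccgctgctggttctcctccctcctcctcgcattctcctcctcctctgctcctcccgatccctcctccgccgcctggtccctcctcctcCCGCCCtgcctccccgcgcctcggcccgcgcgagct
ERBB4, chr2:212538842-212539052, minus strand: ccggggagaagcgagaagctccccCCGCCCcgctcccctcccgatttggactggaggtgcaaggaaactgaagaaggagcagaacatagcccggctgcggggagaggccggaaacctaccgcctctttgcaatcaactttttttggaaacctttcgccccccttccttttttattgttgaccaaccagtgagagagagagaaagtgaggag

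TATAAA began at -29 in EPGN, -32 in EREG and -29 in AREG, counted back from the RefSeq start, where the base just before the start is -1. With the second EGFR start, 4 of the 11 windows held TATAAA, against 10.7% of all 35116 RefSeq windows of that length. GGGCGG was in 5 windows, at the first EGFR and TGFA starts and in ERBB4, AREG and HBEGF, against 42.6% of all windows. CACCTG was in 5 windows, those of AREG, EREG, HBEGF, BTC and the second TGFA start, against 17.5%. Each motif was read on both strands, and these 3 motifs overlapped each other nowhere in the windows shown. The EPGN window was the poorest in G and C, at 38%, where the median of all windows was 58%, and HBEGF the richest at 76.4%.

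Because the treatment was an oestrogen, the windows were also read for the full oestrogen response element, the palindrome of the nuclear oestrogen receptors. It was in 0 of the 11 windows and in 0.0399% of all windows. ERBB3 had no window and was not read for any motif. The shorter motif AGGTCA, which can lie inside the full element, was in the EREG window alone, at -70, and in 12.1% of all windows. The AP-1 motif TGANTCA was in the windows of ERBB2 and the second EGFR start (6.57% of all windows), and the cAMP element TGACGTCA in that of AREG (1.65%). These matches describe letters only, and binding was not measured.

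The 4 libraries held 24597379 to 28734374 counts each, and 3 counts correspond to 0.104 to 0.12 CPM (counts-per-million on scaled library sizes). The lines were labelled as gastric cancer cells, and their markers differed widely. Summed CPM of 10 epithelial markers was 6190 to 6520 in AGS and 73.5 to 77.3 in HGC-27, where most of it was KRT8 and the defining genes EPCAM (10 and 8 counts), KRT19 (1 and 2) and GRHL2 (1 and 2) were near 0. Summed CPM of 8 mesenchymal markers was 5.04 to 5.57 in AGS and 2120 to 2140 in HGC-27, where most of it was VIM. Among them CDH2 was near 0 in both lines, with 5 and 11 counts in AGS control and estradiol and 4 and 0 in HGC-27. Summed CPM of 5 fibroblast markers was 30.1 to 32.2 in AGS against 1780 to 1850 in HGC-27, with DCN, LUM and THY1 at 0 in AGS. Leukocyte markers summed to at most 5.2 CPM and endothelial ones to at most 0.657. These marker differences move with every difference between the lines given next, and their part in those differences was not tested. In bulk libraries, fewer cells of a type and less RNA per cell cannot be told apart.

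EGFR, ERBB2 and ERBB3 were higher in AGS, and ERBB4 was higher in HGC-27. EGFR stood at 131 CPM in AGS control and 146 CPM in AGS estradiol, and at 16.2 CPM in HGC-27 control and 14.8 CPM in HGC-27 estradiol. Both AGS libraries were far above both HGC-27 libraries. ERBB2, the partner receptor without a ligand, stood at 185 and 177 CPM in AGS control and estradiol, and at 80.3 and 81.9 CPM in HGC-27. It was the receptor with the highest CPM in each of the 4 libraries, and the one with the smallest difference between the lines. ERBB3, the receptor with weak kinase activity, stood at 170 and 147 CPM in AGS control and estradiol, and at 4.15 and 4.12 CPM in HGC-27. Its AGS libraries lay somewhat below those of ERBB2, while its HGC-27 libraries held only 120 and 103 counts. ERBB4 had 1 and 2 counts in the AGS control and estradiol libraries, below the 3 counts taken as the floor, and 44 counts in each HGC-27 library (1.52 and 1.76 CPM). It was therefore not detectable above the floor in AGS and low in HGC-27.

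**Figure D1:**
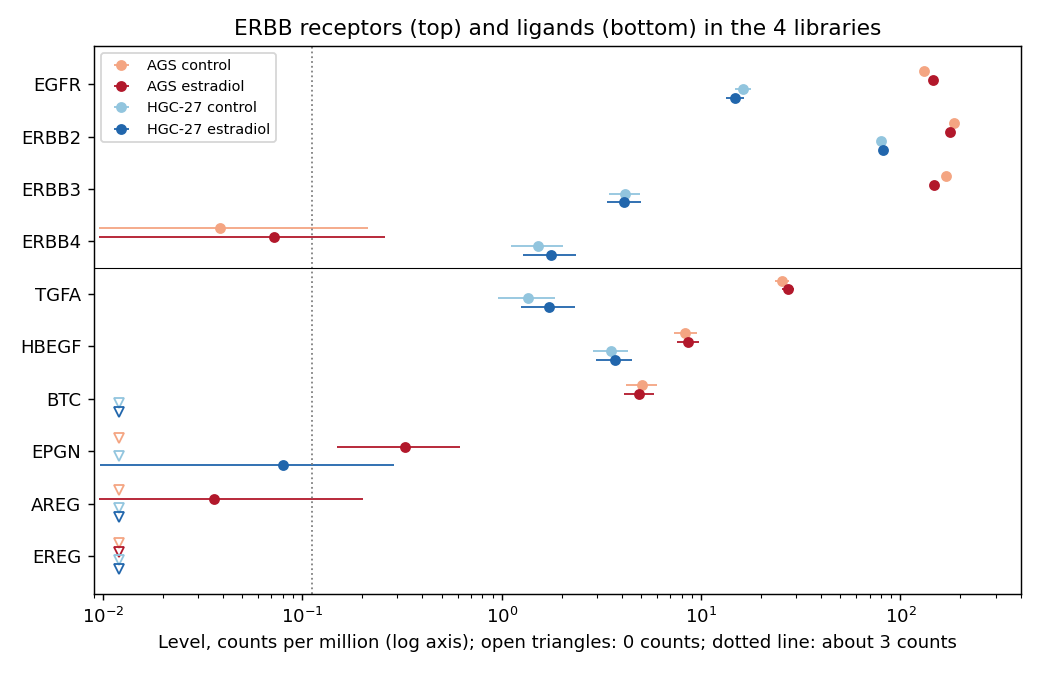
Level of each receptor and ligand in each library, in CPM on a log axis, with 1 point per library, open triangles for 0 counts and a dotted line near 3 counts. EGFR, ERBB2, ERBB3, TGFA, HBEGF and BTC sit higher in both AGS libraries, ERBB4 sits higher in both HGC-27 libraries, and AREG, EREG and EPGN lie at or near 0.

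Of the 6 ligands, 3 were read in AGS at more than a trace and only TGFA and HBEGF in HGC-27. TGFA, an EGFR ligand, stood at 25.5 and 27.4 CPM in AGS control and estradiol and at 1.35 and 1.72 CPM in HGC-27. HBEGF, the heparin-binding ligand, stood at 8.35 and 8.61 CPM in AGS control and estradiol and at 3.53 and 3.68 CPM in HGC-27. For both ligands the AGS libraries were the higher, and the 2 libraries of a line lay close together. BTC, which encodes betacellulin, had 131 and 135 counts in AGS control and estradiol (5.04 and 4.88 CPM) and 0 counts in both HGC-27 libraries.

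BTC was read at the far end of a chromosome 4 block that was otherwise nearly silent. AREG, which encodes amphiregulin, had 1 count in AGS estradiol and 0 in the other 3 libraries. EREG, which encodes epiregulin, had 0 counts in all 4 libraries, with a 95% counting interval up to 0.148 CPM in the shallowest, HGC-27 estradiol. EPGN, which encodes epigen, had 9 counts in AGS estradiol, 2 in HGC-27 estradiol and 0 in both controls. The block holds 6 annotated genes, and the other two, both antisense RNAs, had 0 counts in every library. Outside the block, the next protein-coding gene on the EPGN side, MTHFD2L, a folate enzyme, had 319 and 317 counts in AGS control and estradiol and 260 and 226 in HGC-27. On the BTC side PARM1 had 0 counts in both AGS libraries and 428 and 452 in HGC-27, the reverse of BTC. These neighbours were chosen by position among protein-coding genes.

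Compared per length, as CPM per kilobase of gene length, the receptors made up different mixtures in the lines. In AGS control, ERBB3 (18.8) and ERBB2 (17.9) led, EGFR followed at 10.5 and ERBB4 was at 0.00296, which rests on 1 count. In AGS estradiol ERBB2 was at 17.2, ERBB3 at 16.2, EGFR at 11.7 and ERBB4 at 0.00556. The ranges of ERBB2 and ERBB3 overlap over the AGS libraries, so their order there is not settled, and EGFR was below both in each library. In HGC-27 the order was the same in the control and estradiol libraries: ERBB2 at 7.78 and 7.93, EGFR at 1.3 and 1.18, ERBB3 at 0.459 and 0.456, and ERBB4 at 0.117 and 0.135. No neighbours in that order overlapped. The 4 receptors summed to 47.1 and 45.1 in the AGS libraries and to 9.65 and 9.7 in HGC-27.

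ERBB2 took 38% and 38.1% of this receptor sum in AGS control and estradiol and 80.6% and 81.7% in HGC-27. ERBB3 took 39.8% and 36% in AGS and 4.76% and 4.7% in HGC-27, and EGFR 22.2% and 25.9% against 13.4% and 12.2%. The mixture thus shifted toward ERBB2 in HGC-27, in control and estradiol libraries alike, although ERBB2 itself was lower there. The lengths are those of all exons of a gene joined. With the length of the longest coding transcript instead, ERBB2 led ERBB3 in AGS control at 38.5 against 28.7, and took 87.1% and 87.9% of the HGC-27 sums.

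The ligands also changed their leader. In AGS, TGFA led per length at 5.13 in control and 5.52 in estradiol, HBEGF followed at 2.77 and 2.85, and BTC at 1.79 and 1.73. None of these neighbours overlapped. In HGC-27, HBEGF led at 1.17 in control and 1.22 in estradiol and TGFA followed at 0.272 and 0.347. TGFA thus made up 53% and 53.5% of the ligand sum in AGS and 18.9% and 21.5% in HGC-27, and HBEGF 28.6% and 27.7% against 81.1% and 75.7%. The ligand sums were 9.69 and 10.3 in AGS and 1.44 and 1.61 in HGC-27.

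**Figure D2:**
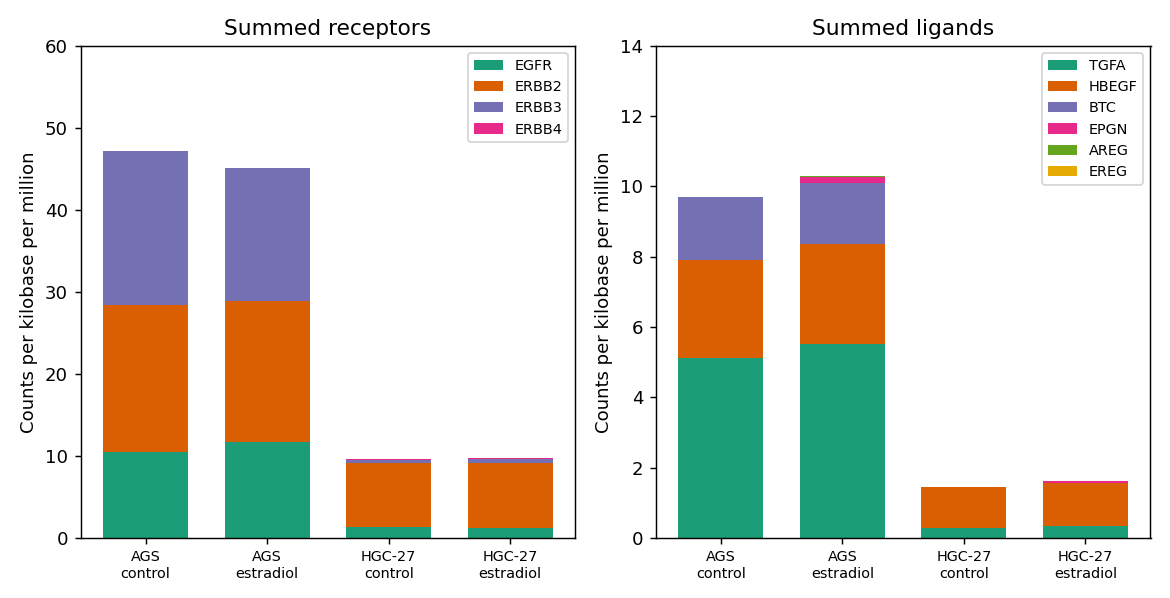
Summed level of the 4 receptors and of the 6 ligands in each library, in CPM per kilobase of gene length, with each bar divided by gene. The AGS receptor bars reach 47.1 and 45.1 and are shared by ERBB2, ERBB3 and EGFR, while the HGC-27 bars reach 9.65 and 9.7 and are mostly ERBB2. TGFA fills the most of the AGS ligand bars and HBEGF of the HGC-27 ones.

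The difference between the lines was tested over all 4 libraries with treatment as a covariate (n = 2 libraries per line). Of the 10 genes, 7 passed the filter on low counts and entered the test, and AREG, EREG and EPGN did not. All 7 tested genes were called, 6 higher in AGS and 1 in HGC-27, in a background where 77.2% of the 18278 tested genes were called, 35.7% higher in AGS and 41.5% higher in HGC-27. A call between these lines was therefore common. BTC and ERBB4 passed the filter through 1 line only and so had to differ. The count of 7 is for that reason no result about the family.

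ERBB3 had the largest fitted difference among the genes with reads in both lines, 5.26 ± 0.09 (log2 AGS minus HGC-27 ± SE), a 38.3-fold higher level in AGS (edgeR quasi-likelihood test, adjusted p = 3.05e-195). TGFA differed by 4.11 ± 0.17, or 17.3-fold (edgeR, adjusted p = 7.28e-81), and EGFR by 3.15 ± 0.07, or 8.89-fold (edgeR, adjusted p = 9.44e-148). A receptor for TGFA and TGFA itself were thus both over 8-fold higher in AGS. HBEGF and ERBB2 differed less, by 1.23 ± 0.2 or 2.35-fold (edgeR, adjusted p = 3.27e-09) and 1.16 ± 0.06 or 2.23-fold (edgeR, adjusted p = 1.07e-61). BTC was at least 44.4-fold higher in AGS, taking 3 counts per library as the floor in HGC-27. ERBB4 was 29.2-fold higher in HGC-27, with a 95% counting interval from 9.66 to 144, since AGS held 3 counts in all. No p-value is given for BTC and ERBB4, because each passed the filter through a single line.

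To set these sizes against genes read at a like minimum, 13249 genes that reached the filter level of 0.368 CPM in all 4 libraries were taken. Of these, 30.4% differed by more than 2-fold and 4.86% by more than 8-fold. EGFR, ERBB2, ERBB3, TGFA and HBEGF belonged to them, and all 5 differed by more than 2-fold, with 3 over 8-fold. The test has 1 residual degree of freedom and takes most of its spread from all genes together, so very small p-values state how large a difference was against that shared spread. ERBB2 shares 7.41% of its exon length with genes on the opposite strand, MIEN1 and PGAP3, and 3.9% of its 31-base stretches with other genes, so some of its reads could belong elsewhere.

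**Figure D3:**
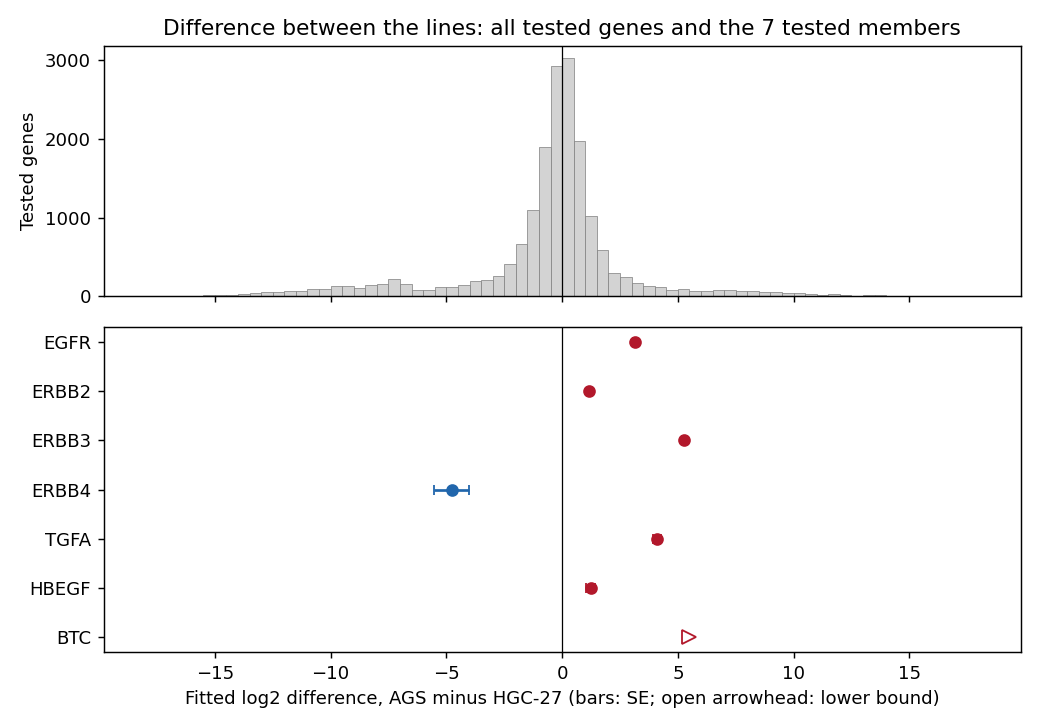
Distribution of the fitted log2 difference, AGS minus HGC-27, over all 18278 tested genes (top), and the 7 tested receptors and ligands with their SE (bottom), with an open arrowhead for the lower bound of BTC. ERBB3, TGFA and EGFR lie beyond 3 on the AGS side, HBEGF and ERBB2 near 1.2, and ERBB4 on the HGC-27 side.

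The remaining EGF-family ligands had more reads in HGC-27. EGF and the neuregulins NRG1 to NRG4 were listed as the other ligands. Each neuregulin binds ERBB3, ERBB4 or both. Of the 5, NRG3 had no reads and the other 4 were called higher in HGC-27, against 41.5% of all tested genes. EGF, NRG1 and NRG2 passed the filter through HGC-27 only and so had to differ, which leaves NRG4 as the 1 ligand of this list read above the filter level in both lines. NRG1, a ligand of ERBB3 and ERBB4, had 1 count in each AGS library and 246 and 204 counts in HGC-27 control and estradiol, a ratio of 224 with a counting interval from 61.6 to 1850. NRG4, an ERBB4 ligand, had 45 and 34 counts in the AGS libraries and 131 and 145 in HGC-27, and its log2 difference was -1.8 ± 0.28. EGF had 1 count in each AGS library and 20 and 23 in HGC-27, and NRG2 had 0 counts in the AGS libraries and 15 and 14 in HGC-27, at least 4.82-fold higher. HGC-27 thus held more reads of ERBB4 and of neuregulins, and AGS more of EGFR, ERBB2, ERBB3 and the EGFR ligands TGFA, HBEGF and BTC.

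Genes that release ligands from the membrane were mixed. Of 13 in the table, 12 were tested, 7 were higher in AGS, 4 in HGC-27 and 1 was not called, with a median log2 difference of 0.38 against -0.1 over all tested genes. Of all tested genes, 77.2% were called, 35.7% higher in AGS and 41.5% in HGC-27. CD9, a tetraspanin that binds the HBEGF precursor, had 8670 and 9029 counts in the AGS libraries and 1185 and 1161 in HGC-27 (log2 difference 2.92 ± 0.06). ADAM9, a sheddase, had 19616 and 21928 counts against 7722 and 6283, and RHBDF1, an inactive rhomboid that serves ADAM17 transport, 1720 and 2066 against 686 and 625. On the HGC-27 side, ADAM19, a metalloprotease of neuregulin shedding, had 0 counts in the AGS libraries and 212 and 183 in HGC-27, at least 65.4-fold higher, and passed the filter through HGC-27 only. BACE1, a protease that cuts neuregulin, had 257 and 284 counts in the AGS libraries and 1161 and 1021 in HGC-27 (log2 difference -2 ± 0.1). RHBDL2, a rhomboid protease, had 10 and 21 counts against 40 and 39, and its call was lost under 3 of the 11 alternatives, with edgeR's, DESeq2's or limma's adjusted p from 0.00243 to 0.0681.

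Adaptors and first signalling steps differed little in size. Of 17 genes, 16 were tested, with 12 higher in AGS, 3 in HGC-27 and 1 not called, against 35.7% and 41.5% of all tested genes, and a median log2 difference of 0.38. SHC3, a neuronal SHC adaptor, had 100 and 83 counts in the AGS libraries and 4 and 15 in HGC-27 (3.26 ± 0.43). It reached the filter level in both AGS libraries but in only 1 HGC-27 library, so AGS alone carried it past the filter. PIK3CB, a catalytic PI3K subunit, differed by 1.36 ± 0.07, and HRAS by 0.84 ± 0.1. PIK3R3, a regulatory PI3K subunit, was higher in HGC-27, with 439 and 390 counts in the AGS libraries and 1871 and 1809 in HGC-27, as was SOS1, a RAS exchange factor, by -0.57 ± 0.06. GRB2, the adaptor that joins active receptors to SOS1, had 2716 and 2915 counts in the AGS libraries and 3364 and 2811 in HGC-27, and its log2 difference was -0.12 ± 0.06. Its call (edgeR, adjusted p = 0.0465) was lost under 8 of the 11 alternatives, where adjusted p ranged from 0.0328 to 0.184.

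Receptor brakes and turnover genes were likewise split, with 11 of 16 higher in AGS, 3 in HGC-27 and 2 not called, against 35.7% and 41.5% of all tested genes, and a median of 0.37. CBLC, a ubiquitin ligase of the CBL family, had 1463 and 1557 counts in the AGS libraries and 0 in HGC-27, at least 503-fold higher, and passed the filter through AGS only. ERRFI1, an inhibitor that binds the EGFR kinase domain, had 3836 and 4674 counts in the AGS libraries and 863 and 765 in HGC-27, and SH3KBP1, an adaptor of CBL in receptor uptake, 3063 and 3454 against 820 and 703. These genes, the list's largest called differences on the AGS side, were higher in the line with more EGFR. A link to EGFR was not tested. Higher in HGC-27 were TNK2, a kinase tied to EGFR turnover (-1.4 ± 0.09), RNF41, a ubiquitin ligase for ERBB3 (-1.2 ± 0.07), and SOCS5, a suppressor of EGFR signalling (-0.47 ± 0.08). RNF41 had 1192 and 1236 counts in the AGS libraries and 2933 and 2652 in HGC-27, opposite in direction to ERBB3.

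Genes transcribed downstream of MAPK signalling had the highest median of the 5 lists, 3.03, with 17 of 18 tested genes higher in AGS and 1 in HGC-27, against 35.7% and 41.5% of all tested genes. DUSP4, a MAPK phosphatase, had 4793 and 6358 counts in the AGS libraries and 12 and 6 in HGC-27 (9.25 ± 0.13). DUSP6, an ERK phosphatase, had 718 and 806 counts in the AGS libraries and 11 and 8 in HGC-27 (6.31 ± 0.21). SPRY4, a Sprouty inhibitor of receptor tyrosine kinase signalling, had 643 and 842 counts against 8 and 11 (6.26 ± 0.22). DUSP4, DUSP6, SPRY4 and FOSL1 reached the filter level in both AGS libraries but in only 1 HGC-27 library. AGS alone thus carried these genes past the filter, which favoured their direction in advance, also in the count of 17 and the median. MYC was the exception, with 4391 and 4649 counts in the AGS libraries and 7528 and 6258 in HGC-27 (-0.6 ± 0.05). Protein activity was not measured, and other differences between the lines move with these genes as well.

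**Figure D4:**
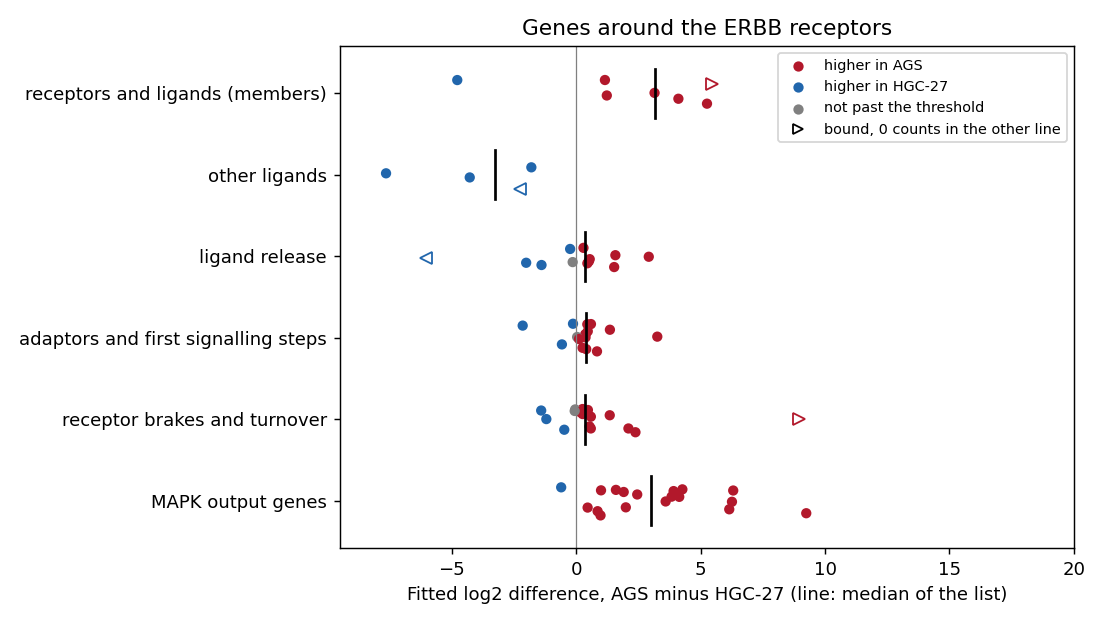
Fitted log2 difference, AGS minus HGC-27, of each tested gene in the receptor and ligand set and in 5 lists around it, with 1 point per gene, open triangles for bounds where the other line had 0 counts, and a vertical bar at the median. The receptor and ligand set and the MAPK output genes have medians of 3.15 and 3.03, the other ligands lie wholly on the HGC-27 side, and the other 3 lists have medians of 0.37 to 0.38.

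Estradiol was then compared with control over both lines, with the line as a block (n = 2 libraries per group, 1 from each line). The 2 libraries of a group are thus different cell lines, not repeats of the same line. No receptor or ligand was called: 0 of the 7 tested genes passed edgeR's quasi-likelihood test, and 0 passed DESeq2 or limma-voom, in a background of 0.153% of 18278 tested genes called, 0.115% higher and 0.0383% lower. At an unadjusted p under 0.05, edgeR had 1 of the 7, ERBB3, and 3.24% of all tested genes. ERBB3's log2 change, estradiol minus control, was -0.18 ± 0.08. The other receptors' changes were 0.06 ± 0.07 for EGFR, -0.02 ± 0.06 for ERBB2 and 0.27 ± 0.61 for ERBB4, and the ligands' were 0.15 ± 0.15 for TGFA, 0.05 ± 0.2 for HBEGF and -0.05 ± 0.38 for BTC. All 7 had an adjusted p of 1 in edgeR. The SE sets what could be seen: it was at most 0.08 for EGFR, ERBB2 and ERBB3 and 0.61 for ERBB4.

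Within a line there was 1 library a group and no test, so ratios are given with 95% counting intervals, which cover counting error only. EGFR in AGS had 3407 counts in control and 4040 in estradiol, a log2 ratio of 0.16 (0.09 to 0.22), and in HGC-27 470 and 370 counts, a log2 ratio of -0.13 (-0.34 to 0.07). The AGS interval lay above 0 and the HGC-27 one included 0, and whether the lines differ in this was not tested. ERBB3 in AGS had 4408 counts in control and 4051 in estradiol, a log2 ratio of -0.21 (-0.27 to -0.15), and in HGC-27 120 and 103 counts, a log2 ratio of -0.01 (-0.4 to 0.38). In AGS the estradiol library was thus higher for EGFR and lower for ERBB3.

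Such intervals were not rare. Of the 6 receptor and ligand genes with a mean of at least 10 counts in AGS, 1 interval lay above 0 and 1 below, against 12.6% and 13.6% of 15605 genes. In HGC-27, 0 of 6 lay above or below, against 10.1% and 11.2% of 17234 genes. ERBB2 had log2 ratios of -0.06 (-0.12 to 0.000919) in AGS and 0.03 (-0.06 to 0.12) in HGC-27. TGFA stood at 0.1 (-0.05 to 0.26) in AGS and at 0.35 (-0.31 to 1.02) in HGC-27, where it had 39 and 43 counts. HBEGF stood at 0.04 (-0.23 to 0.32) and 0.06 (-0.36 to 0.48) and BTC at -0.05 (-0.4 to 0.31) in AGS, and all of these intervals included 0.

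**Figure D5:**
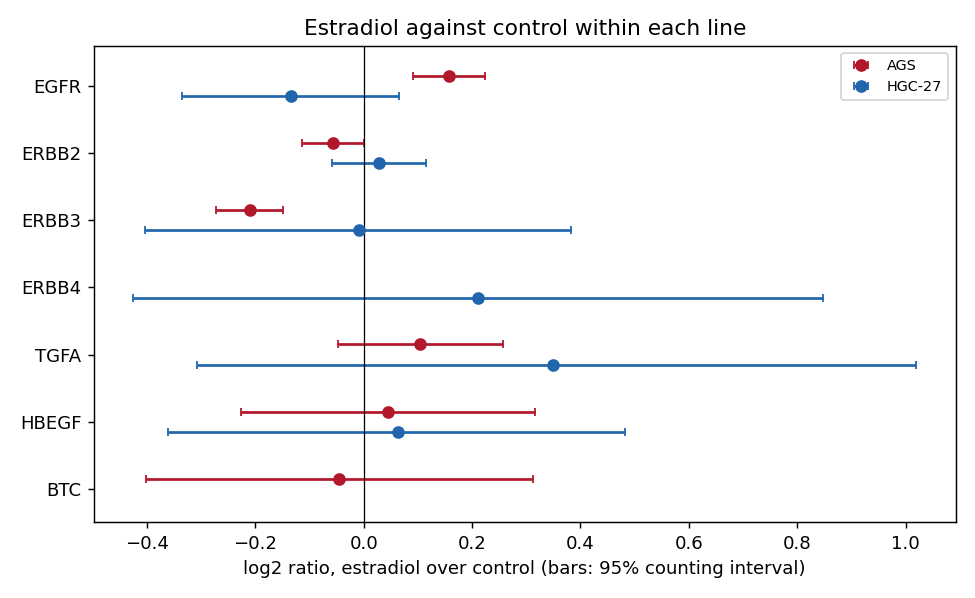
Log2 ratio of estradiol over control for each receptor and ligand with a mean of at least 10 counts in a line, with bars for the 95% counting interval of the 1 library per group. The AGS intervals of EGFR (0.09 to 0.22) and ERBB3 (-0.27 to -0.15) exclude 0, and the others include it.

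EPGN was read in both estradiol libraries and in neither control. In AGS it went from 0 counts to 9 (0.326 CPM), at least 2.82-fold above the floor of 3 counts, and in HGC-27 from 0 to 2, under the floor. The gene did not pass the filter. Without a filter, over 33755 genes, edgeR's quasi-likelihood test gave it an adjusted p of 0.999. Among 34376 genes with 0 counts in AGS control, 43 (0.125%) had 9 or more in AGS estradiol, and in the reverse direction 34 (0.0996%) of 34132 did, a rule chosen after EPGN's counts were seen. A count of this size thus appeared in either direction.

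Of the hormone's own receptors, ESR2 and GPER1 differed in reads between the lines. ESR1 had at most 5 counts in any library and was not tested. ESR2 was higher in AGS, at 44 and 73 counts against 17 and 19, or 3.17-fold (edgeR, adjusted p = 0.000194). Its log2 ratio of estradiol over control was 0.635 in AGS (counting interval 0.08 to 1.22). In AGS, 12.6% of all genes had such an interval above 0. In HGC-27 the ratio was 0.367 (-0.65 to 1.41), and ESR2 was not called with estradiol over both lines. GPER1, a membrane receptor that responds to oestrogen and has been tied to EGFR activation through release of HBEGF, had 35 and 28 counts in the AGS libraries, against 1051 and 894 for HGC-27, the line with fewer reads of EGFR and HBEGF.

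Around the receptors, 1 of the 66 tested genes in the 5 lists was called with estradiol by edgeR, against 0.153% of all tested genes. It was IER3, an immediate-early gene of the MAPK output list, with 1122 and 1393 counts in AGS control and estradiol and 268 and 403 in HGC-27. It rose by 0.44 ± 0.1 (edgeR, adjusted p = 0.00629), fitted over unequal log2 ratios of 0.22 in AGS and 0.8 in HGC-27, and was not called by DESeq2, by limma-voom, without the line as a block, or when genes of shared sequence were left out (adjusted p = 0.477). DUSP4 had a log2 change of 0.3 ± 0.08 and did not pass (edgeR, adjusted p = 0.0847). Over all genes, 12.6% of counting intervals lay above 0 and 13.6% below in AGS, and 10.1% and 11.2% in HGC-27. Within AGS, 7 of 18 MAPK output genes had intervals above 0 and 0 below (median ratio 0.1 on the log2 scale), and within HGC-27 3 of 15 lay above and 2 below (median 0.12). Ligand release genes had 3 of 11 above and 0 below in AGS and 3 of 12 above and 1 below in HGC-27. Adaptors had 0 of 16 above and 3 below in AGS and 2 of 15 above and 1 below in HGC-27, and the brakes 3 above and 3 below of 16 in AGS and 3 above and 0 below of 15 in HGC-27.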

How the data were processed

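Per the labels' protocols, TRIzol was used to extract total RNA, and the library method was from NEB. HISAT2 alignment and featureCounts counting are named in the submitters' processing notes. Their versions, the strand setting and the treatment of reads with several matches are not given in the sources used here. For each gene, the authors deposited the raw counts, with no normalization, and the gene length. The submitters' processing notes name hg18, but start and end of all 10 genes equal GENCODE 29 on GRCh38, as do those of 57475 of 58336 genes, so positions are given on that build.

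The main test ran in edgeR 4.0.16 under R 4.3.3, with TMM scaling, filterByExpr, a quasi-likelihood test in a model of line plus treatment, Benjamini-Hochberg adjustment over all 18278 tested genes and a threshold of 0.05. The fit had 396.9 prior degrees of freedom and a biological coefficient of variation of 4.59%. The number in a library name marks the line, so libraries pair by line (correlation 0.997 within a line, 0.781 and 0.777 between lines, across genes). Ratios within a line used a prior of 0.5 counts and an exact conditional binomial interval. No molecular identifiers were counted, so reads need not be independent molecules, and intervals and floors cover counting error only. A fold against a line at 0 counts was taken against 3 counts per library.

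Named list genes were the up to 3 largest line differences per direction among called genes with a mean CPM of at least 1, and every gene called with estradiol. EGF, NRG2, DUSP4's estradiol value, neighbours on chromosome 4 and markers were added. NRD1 was not found under that symbol. The members and lists were chosen with earlier results of these data known. Alternatives used DESeq2 1.42.0, limma 3.58.1, other filters and scalings, each library left out for the line difference, and each line left out for estradiol. Steps were tested on simulated data.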

Additional observations from a re-analysis of the deposited data

How the results depend on the processing

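All 7 tested receptors and ligands kept the direction of their line difference under each of the 11 alternatives. Log2 differences ran from 3.07 to 3.23 for EGFR, 1.13 to 1.19 for ERBB2 and 5.15 to 5.36 for ERBB3. They ran from -5.25 to -4.41 for ERBB4, 3.94 to 4.3 for TGFA and 1.2 to 1.28 for HBEGF. BTC and ERBB4 passed the filter through 1 line only and so had to differ. The calls of the other 5 genes held in each alternative that used all 4 libraries. In 4 of the 11 alternatives 1 library was left out and the model held the line alone, so the line with 1 library was assumed to vary like the other. The number of genes called between the lines was 14106 and ranged from 12542 with DESeq2 to 14357, and from 13111 to 13879 without 1 library.

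With estradiol, 0 receptors and ligands were called under every alternative run, but the 28 genes called among all tested genes fell to 17 with edgeR's robust prior, to 2 without genes of shared sequence, to 1 with DESeq2 and to 0 with limma-voom. Without the replicate block by line, 0 were called. At an unadjusted p under 0.05 there were 593 genes with edgeR, 490 with limma-voom, 145 with DESeq2 and 2 without the block. The cause of these losses was not tested, except that without the block the difference between the lines enters the spread. The prior degrees of freedom, 396.9 in the main fit, were 20.65 without genes of shared sequence. With DESeq2 size factors in place of TMM scaling they were 82.08, and 23 genes were called with estradiol. The part of this shared prior in the losses was not tested. BTC's estradiol change of -0.05 turned to 0.00374 with limma-voom (adjusted p = 0.999). Robust fitting and the set without genes of shared sequence were chosen after seeing the data. With 1 line left out, no estradiol test remains, and the values are the ratios within a line.

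Depth limits AREG, EREG and EPGN in both lines, ERBB4 in AGS and BTC in HGC-27, where levels under about 0.1 CPM cannot be told from 0.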
